A study of Mus musculus with 18 samples.

Results

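The splicing factor genes examined here are 53 mouse genes for proteins that choose splice sites or form the spliceosome. They comprised 15 genes for SR proteins and SR-like proteins, 13 for hnRNP proteins, 9 for regulated and tissue-biased splicing regulators, 12 for the core spliceosome and 4 for helicases and kinases. A differential m6A peak was given to one of these genes when its annotation named the gene, or when it was assigned to the gene and its centre lay within the gene's listed borders. By this rule 118 of the 40929 differential peaks used lay in 40 of the 53 genes, and 24229 of the 40929 lay in a protein-coding gene. The rule itself uses names and positions and no measured value, but the list of genes was chosen with earlier results of these data known.

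Pre-mRNA splicing is carried out by the spliceosome, in which small nuclear ribonucleoproteins recognise the splice sites and remove the intron. SR proteins bind exonic enhancers and usually favour inclusion of an exon, whereas hnRNP proteins often favour its skipping, and regulators such as the Rbfox, Mbnl, Celf and Esrp families set splicing programmes of particular cell types. Many of these genes control their own level through exons whose inclusion sends the transcript to decay. N6-methyladenosine (m6A) is written on nascent RNA within the DRACH motif (A, G or T, then A or G, then A, C and finally A, C or T), and its nuclear reader Ythdc1 is known to recruit Srsf3 and to restrict Srsf10.

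Uteri were collected on day 5 of pregnancy from 8-week-old ICR mice of 3 treatments. Vehicle mice (Veh) received 0.9% sterile saline from day 1 to day 4, LPS mice received the saline and bacterial lipopolysaccharide at 0.5 mg/kg on days 3 and 4, and Mel+LPS mice received the same LPS with melatonin at 10 mg/kg from day 1 to day 4, given 30 min before LPS. Melatonin was dissolved in saline with ethanol, whereas the saline of the other groups is described without it. All mice were wild type, every injection was intraperitoneal, and each treatment had 3 input and 3 m6A-immunoprecipitated (IP) libraries, 18 in all. Whole uterus was used, so a change of cell types and a change within cells cannot be told apart.

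The 4 tables give peaks higher in LPS than in Veh, lower in LPS than in Veh, higher in Mel+LPS than in LPS and lower in Mel+LPS than in LPS. Each peak has 1 log10 likelihood ratio, which grows as the reads of both treatments become harder to describe by a single level. There is no value per library, so no error between mice and no p-value can be given. The read depth behind each value is unknown. Intervals below are Wilson 95% intervals, or Poisson 95% intervals for matches per 1000 bases. They cover the counting of peaks, genes or matches only. The tables hold no RNA level, so tissue markers could not be checked, and whether RNA amount moved with a peak was not tested. A gene without a peak may have had no m6A, no difference or too few reads. The table of peaks lower in LPS breaks off on chromosome 10 and was used on chromosomes 1 to 9, which hold 27 of the 53 genes. Both comparisons share the LPS libraries, so their values are set side by side and no overlap between them is read as a result. Coordinates are those of GRCm38, sequences and exon numbers are from GENCODE release 21, on the principal transcript except where another is named, and intron numbers are those of the tables. A peak described as at an exon overlaps it, in some genes by as few as 4 bases, and can be centred in the intron beside it.

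GGACT was found in 6.76% of the exonic parts read, beside 20.7% for all protein-coding genes. The sequences below are from the exonic peaks with this match. They are written 5′ to 3′ on the strand of the gene, in lower case, with GGACT, the DRACH form most often found at m6A sites, in capitals. GGACT occurred 8 times in the exonic part of 5 peaks, and 4 of these 8 lay in the first sequence, a peak in the long exon 3 of Son that was higher in Mel+LPS than in LPS (chr16:91656818-91657064, plus strand). Its GGACT copies start at positions 27, 57, 87 and 117 of the sequence, 30 bases from one to the next.
Son, exon 3: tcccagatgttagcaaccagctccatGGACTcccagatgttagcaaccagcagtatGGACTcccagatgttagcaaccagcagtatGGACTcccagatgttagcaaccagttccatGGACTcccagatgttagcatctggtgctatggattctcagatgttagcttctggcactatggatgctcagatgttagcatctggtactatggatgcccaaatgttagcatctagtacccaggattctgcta
Short stretches around the other 4 matches follow. They come from a further peak in exon 3 of Son (chr16:91659883-91659912, plus strand), exon 6 of Tra2b (chr16:22249056-22249085, minus strand), the 3′UTR of Hnrnpa1 (chr15:103244403-103244432, plus strand) and the 3′UTR of Esrp2 (chr8:106130719-106130748, minus strand).
Son, exon 3, second site: ggagaagaaaagGGACTcttcattacggtc
Tra2b, exon 6: ttatgatgaccgGGACTattacagcagatc
Hnrnpa1, 3′UTR: gcaaaaactccaGGACTgtatttgtgacta
Esrp2, 3′UTR: tcaggttaaaggGGACTttgccaacttttt
The first 3 lay in peaks higher in Mel+LPS, and the Esrp2 site lay in a peak lower in LPS. The highest value among these 5 peaks was 2.19, that of the first.

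After LPS, 19 of the 53 genes (35.8%) had at least 1 higher peak, beside 20.1% of all protein-coding genes, and 10 of the 27 genes on chromosomes 1 to 9 (37.0%) had at least 1 lower peak, beside 22% of all. In Mel+LPS, 34 of the 53 genes (64.2%, interval 50.7 to 75.7) had a higher peak, beside 25.6% of all protein-coding genes, and 12 (22.6%) had a lower peak, beside 15.3%. The background counts every protein-coding gene whether or not the uterus transcribes it, and the part of this in the shares was not tested. Among genes with a peak in any table the shares were closer. Of the 40 splicing factor genes with a peak, 47.5% had one higher in LPS, beside 47.6% of all such genes, and 30.0% had one lower in Mel+LPS, beside 36.2%. The share with a peak higher in Mel+LPS was 85% (70.9 to 92.9), beside 60.6%. Of the 20 such genes on chromosomes 1 to 9, 50% had one lower in LPS, beside 49.2%. A peak higher in Mel+LPS itself admits a gene to this second count, so that count is not separate from the first. In the first count, peaks higher in Mel+LPS were the table in which the splicing factor genes stood farthest from the background, without a test of that difference.

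**Figure D1:**
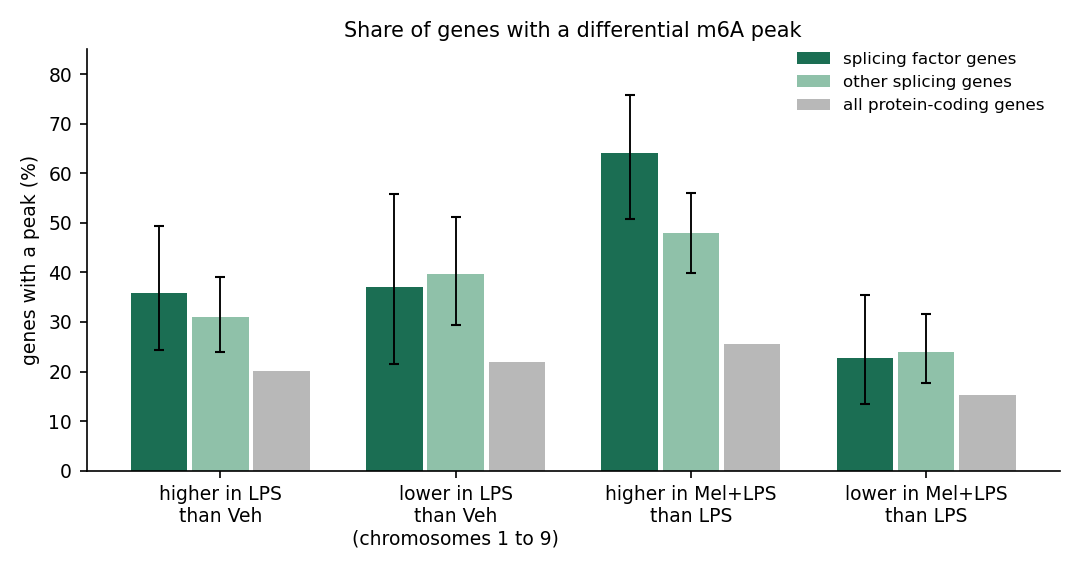
Share of genes (%) with at least 1 differential m6A peak in each table, for the 53 splicing factor genes, 142 other splicing genes and all protein-coding genes, with Wilson 95% intervals for both gene lists. The splicing factor genes reach 64.2% for peaks higher in Mel+LPS, beside 25.6% of all protein-coding genes.

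Of the 118 peaks, 31 were higher in LPS, 14 lower in LPS, 58 higher in Mel+LPS and 15 lower in Mel+LPS. In Mel+LPS vs LPS, 58 of 73 peaks were thus higher (79.5%, 68.8 to 87.1), beside 67.9% of the peaks of all protein-coding genes. Per gene, 25 had only higher peaks, 3 only lower peaks (Srsf10, Srsf11 and Hnrnpl), 9 had both and 16 had none. By position Srsf10 also had a higher peak, on its last exon (1.77), which the rule did not give it. In LPS vs Veh on chromosomes 1 to 9, 19 of 33 peaks were higher (57.6%, 40.8 to 72.8), beside 48.5% of all. Per gene, 6 had only higher peaks, 5 only lower, 5 both and 11 none. Directions per gene were not counted for all protein-coding genes, so the counts per gene of both comparisons have no background beside them. Without introns, 11 of 24 peaks (45.8%) were higher in LPS, beside 48.3% of all, and 86.4% (75.5 to 93.0) higher in Mel+LPS, beside 74.3% of all. Among intron peaks 8 of 9 were higher in LPS, beside 48.9% of all, whereas in Mel+LPS 7 of 14 were higher, beside 45.7%.

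The values of most peaks were low. The median log10 likelihood ratio of the splicing factor peaks was 1.84 for higher in LPS, 1.58 for lower in LPS, 1.78 for higher in Mel+LPS and 1.67 for lower in Mel+LPS. The peaks of all protein-coding genes had medians of 2.58, 2.45, 2.16 and 2.88 in the same order. At least 3 was reached by 22.6%, 7.14%, 22.4% and 26.7% of the splicing factor peaks, beside 44.3%, 42.6%, 32.0% and 48.9% of all. All 4 medians of the splicing factor genes lay below those of all protein-coding genes. Of the 61 peaks classed as exon, 4 reached 3, and these 4 were higher in Mel+LPS. Among exon peaks of all protein-coding genes, 28.7% to 35.3% of each table reached 3. Peaks described below at a numbered exon of GENCODE can be of another class. Those at exon 3 of Srsf7 (5.95), exon 3 of Celf2 (7.52), exon 2 of Rbm5 (4.53) and exon 4 of Sf3b1 (3.58) were classed as 5′UTR. A few intron values were shared by many peaks of their table. Both intron peaks of Celf2 and that of Rbm25 higher in LPS had 3.78, a value that 1450 peaks of that table had, and that of Sf3b1 had 6.19, which 242 had.

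**Figure D2:**
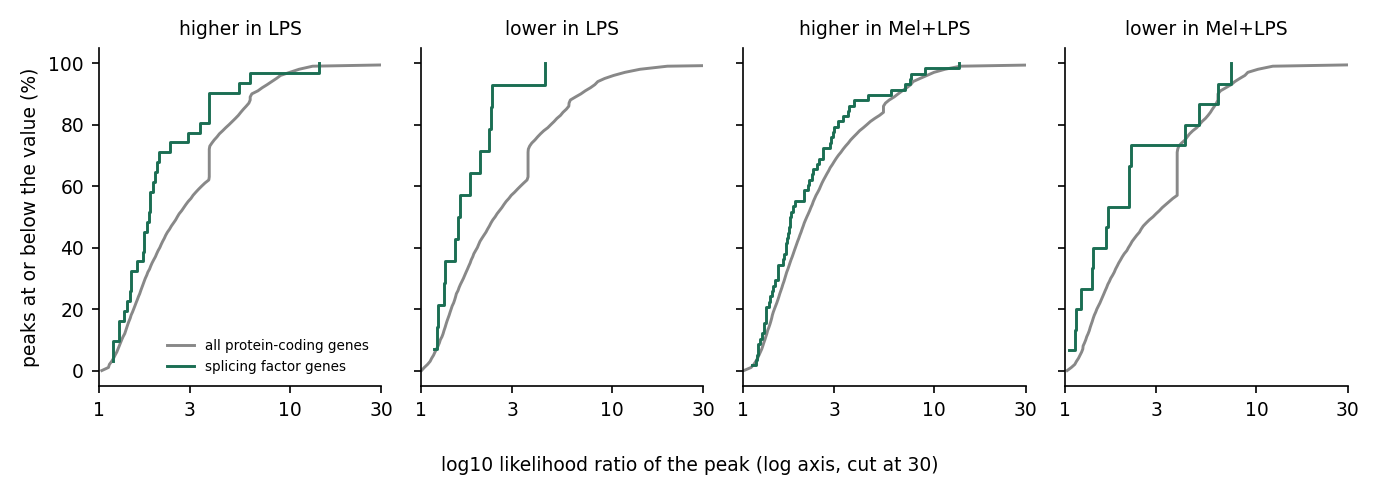
Cumulative share (%) of peaks at or below each log10 likelihood ratio (log axis, cut at 30) in the 4 tables, for the splicing factor genes and all protein-coding genes. The curve of the splicing factor genes lies to the left over most of its course, with medians of 1.58 to 1.84 beside 2.16 to 2.88.

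Among the SR proteins and SR-like proteins, 11 of 15 genes had 35 peaks, of which 16 were higher and 7 lower in Mel+LPS. For all protein-coding genes 67.9% of the peaks of that comparison were higher. Son, a large nuclear speckle protein needed for splicing of weak introns, had the most peaks, 9. In Mel+LPS, 4 peaks in its 5970-base exon 3 had values of 2.19, 1.25, 1.82 and 1.53 and 1 at exon 4 had 1.71, all higher, whereas peaks at exons 5 and 9 were lower with 1.67 and 1.64. In LPS, Son had higher peaks in intron 8 (3.40) and exon 9 (1.71). The higher peaks in Mel+LPS thus lay toward the 5′ side of the gene and the lower ones toward the 3′ side.

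Tra2a, an SR-like activator of exon inclusion, had the highest value of any splicing factor peak in LPS vs Veh. Its peak in intron 1 (chr6:49257679-49257836) was higher in LPS with 14.2, and a peak at chr6:49257712-49257836 was lower in Mel+LPS with 7.32. Another peak in the same intron, about 1 kb upstream, was higher in Mel+LPS with 3.0. No exon annotated for Tra2a overlapped any of the 3.

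Srsf3, an SR protein that also takes part in mRNA export, had its peak in the 3′UTR at the same borders in both comparisons (chr17:29041759-29041943). It was higher in LPS with 1.73 and lower in Mel+LPS with 4.24. A second peak in intron 3 was higher in Mel+LPS with 2.95 and lay on an exon of a transcript annotated as retained intron. The DRACH match nearest to the centre of the 3′UTR peak lies at chr17:29041833-29041862 and is shown in capitals.
Srsf3, 3′UTR: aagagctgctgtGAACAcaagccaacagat

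Srsf7, an SR protein with a zinc knuckle, had a single peak, at exon 3, which was higher in Mel+LPS with 5.95. Srsf10, which acts as a repressor when dephosphorylated, had higher peaks in LPS at exon 4 (1.36) and just before the last exon (2.92), and lower peaks in Mel+LPS in intron 2 (1.2) and at the start of the last exon (1.38). Srsf6, a regulator of alternative exons, had a peak at exon 4 that was lower in LPS with 2.34 and higher in Mel+LPS with 1.39, and a 3′UTR peak that was higher in LPS with 1.48. Srrm2, a scaffold of nuclear speckles, had 3 higher peaks in LPS, of 1.19, 1.28 and 2.06, and 2 higher peaks in Mel+LPS, of 1.41 and 2.87. The other 4 genes of the group with a peak, Srsf5, Srsf11, Srrm1 and Tra2b, had 7 peaks with values from 1.05 to 2.30. No peak was given to Srsf1, Srsf2, Srsf4 or Srsf9.

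The rule undercounted Srrm2. A further 10 peaks lay on its annotated exons but were assigned to other borders, and 9 of them were in its 6569-base coding exon, which the tables mostly class as 3′UTR. Of the 10, 4 were higher in LPS, 5 higher in Mel+LPS and 1 lower in Mel+LPS, with values from 1.33 to 3.61, so that Srrm2 had 15 peaks by position. In this exon a peak at chr17:23817256-23817408 was higher in LPS with 2.77, and one at chr17:23817170-23817498 was higher in Mel+LPS with 2.36. Over all 53 genes, 20 peaks on exons of 9 genes were missed in this way, 6 higher in LPS, 11 higher in Mel+LPS and 3 lower in Mel+LPS. One of them was on Srsf2 (lower in Mel+LPS, 2.99), which raised the number of genes with a peak to 41.

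**Figure D3:**
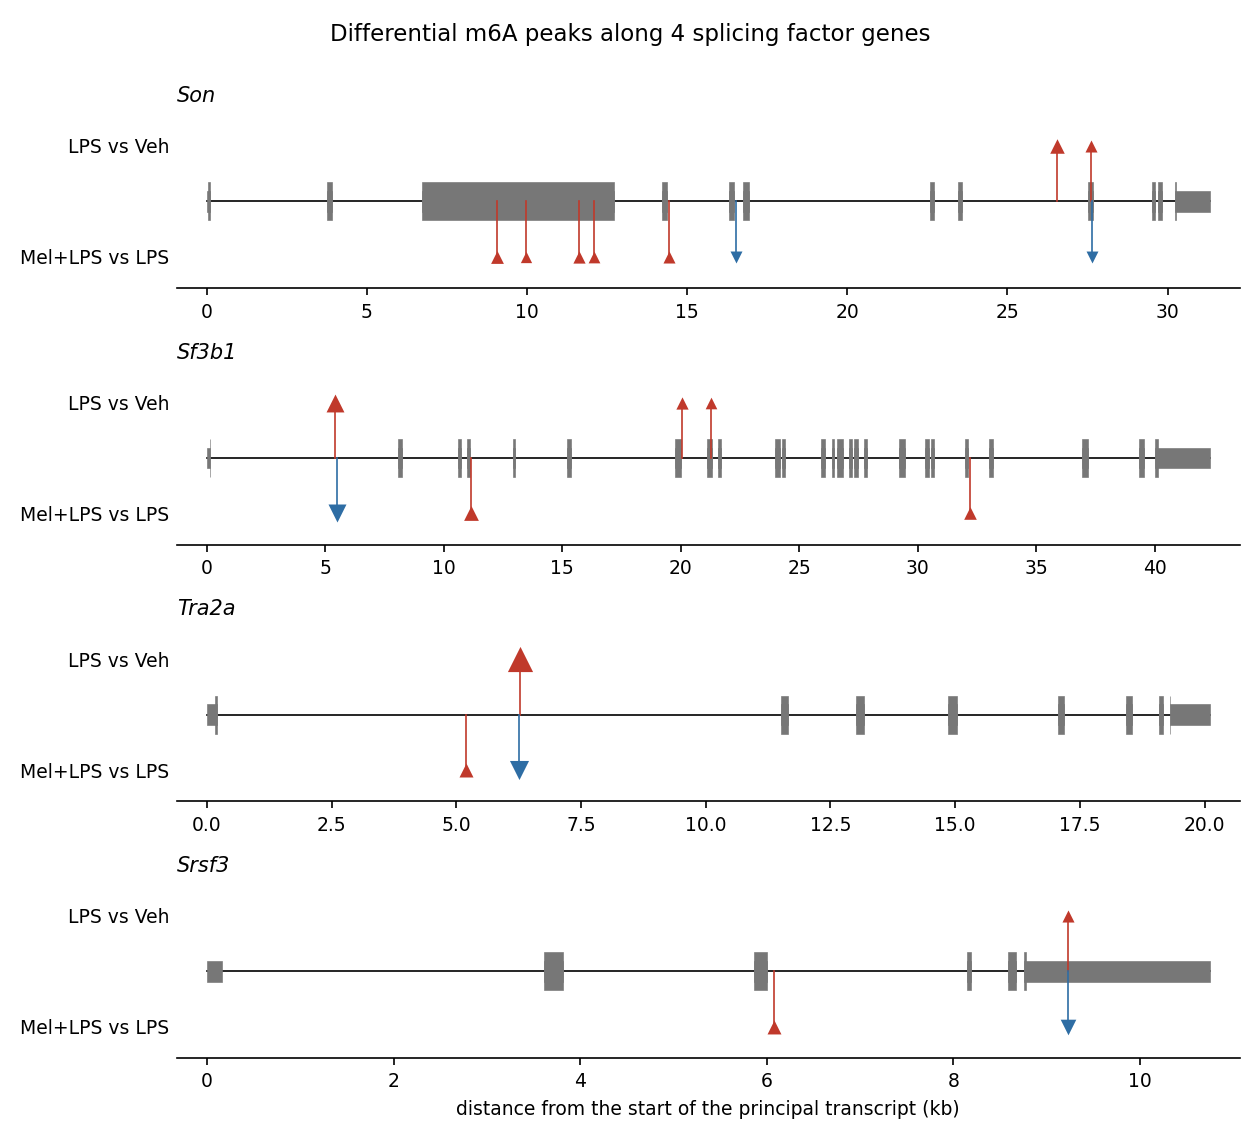
Peaks of Son, Sf3b1, Tra2a and Srsf3 along the principal transcript, in kb from its start. Boxes are exons (tall for coding parts), upward red triangles peaks higher and downward blue triangles peaks lower in the first-named treatment, larger for larger values; in intron 1 of Tra2a the LPS peak has 14.2 and the Mel+LPS peaks 7.32 and 3.0.

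Among the hnRNP proteins, 11 of 13 genes had 30 peaks. In Mel+LPS 17 peaks of 10 genes were higher and 1 was lower, and in LPS 5 were higher. Of all protein-coding genes, 25.6% had a peak higher in Mel+LPS, and 67.9% of their peaks in that comparison were higher. On chromosomes 1 to 9, which hold 8 of the 13 genes, 4 peaks were higher and 7 lower in LPS, beside 48.5% higher for all protein-coding genes. Hnrnpul1, an hnRNP U-like protein, had the highest value of the group. Its peak in intron 7 (chr7:25740673-25740777) was higher in Mel+LPS with 8.89 and lay on an exon annotated for a retained-intron transcript only. A further 3 peaks were higher in Mel+LPS, with 2.62 in intron 5, 1.76 at exon 8 and 1.2 at exon 2, and 1 at exon 13 was higher in LPS with 1.46.

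Hnrnpa3, a relative of the splicing repressor Hnrnpa1, had 6 peaks. In LPS those at exon 4 (2.33), exon 7 (1.34) and the start of the last exon (1.17) were lower, and one in a longer 3′UTR was higher (1.73). In Mel+LPS the peaks at exons 2 and 4 were higher with 3.79 and 1.74. Hnrnpl, which binds CA-rich RNA, had a lower peak and no higher peak in Mel+LPS. Its peak over a 70-base exon within intron 6 of the principal transcript that GENCODE gives to a transcript marked for nonsense-mediated decay and to no coding transcript (chr7:28817335-28817404) was higher in LPS with 1.86 and lower in Mel+LPS with 1.41. A second intron peak was higher in LPS (1.92), and peaks at exons 6 and 12 were lower in LPS (1.23 and 2.28). For the peak over the 70-base exon only those 70 bases were read, and the centre of the peak lies 5′ of them. The DRACH match in the 70 bases that is nearest to that centre (chr7:28817359-28817388, plus strand) is in capitals.
Hnrnpl, exon marked for decay: cgccatctttcaGAACTgtgctaactcact

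Hnrnpd, also known as Auf1 and a binder of AU-rich RNA, had a peak at exon 6 that was lower in LPS with 2.03 and one at exon 4 that was higher in Mel+LPS with 1.79. The other 7 genes of the group with a peak, Hnrnpa1, Hnrnpf, Hnrnph1, Hnrnpk, Hnrnpm, Hnrnpr and Hnrnpu, had 12 peaks between 1.11 and 2.63, and 10 of these 12 were higher in Mel+LPS. The exceptions were Hnrnpk, with an intron peak higher in LPS (1.4), and Hnrnpr, with a peak at exon 2 lower in LPS (1.80). Ptbp1 and Ptbp2, the polypyrimidine tract repressors, had none. Hnrnpa1 and Hnrnpa3 belong to families with near-identical copies in the genome, and how reads matching several places were treated is not given in the sources used here, so their peaks are uncertain.

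Among the regulated and tissue-biased regulators, 7 of 9 genes had 24 peaks, and this group held 11 of the 25 values of at least 3. All 6 peaks of 1 long gene, Celf2, were among these 11. Qk (Quaking), a STAR-family regulator of splicing and of circular RNA, had the highest value of any splicing factor gene in Mel+LPS vs LPS. The peak given to it by the rule (chr17:10238735-10238944) was higher in Mel+LPS with 13.5, overlapped 52 bases of exon 4 and was centred in the intron 3′ of it. The exonic part (chr17:10238893-10238944, minus strand) has no DRACH match, and is shown for that reason.
Qk, exon 4: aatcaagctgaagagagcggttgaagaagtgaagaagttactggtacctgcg
A second peak, missed by the rule, lay in its 3′UTR (chr17:10209121-10209281) and was higher in Mel+LPS with 1.24.

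Celf2, a regulator of muscle and brain exons, had 6 peaks in a gene of 856648 bases. It was the only gene with a value of at least 3 in all 4 tables. Only the 27 genes on chromosomes 1 to 9 could have such values, and just 1 splicing factor peak lower in LPS, that of Celf2, reached 3. In LPS a peak at chr2:6871669-6871868 was higher with 5.39, 2 in the first intron were higher with the shared value of 3.78, and 1 in intron 8 was lower with 4.45. In Mel+LPS the peak at chr2:6871669-6871868 was lower with 5.04, and a peak at exon 3 was higher with 7.52. Rbfox2, a regulator that binds GCAUG and is spread over a 229445-base gene, had peaks in Mel+LPS vs LPS and none higher in LPS. A peak over the first exon of an alternative coding transcript (chr15:77153516-77153696) was higher with 7.43 and one in intron 1 (chr15:77266878-77267076) was higher with 7.06. Peaks at exon 3 (1.33) and exon 1 (1.75) were also higher, and another in intron 1 was lower (2.16).

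Mbnl1, which drives adult splicing patterns in muscle, had 2 higher peaks in LPS, of 1.84 in an intron and 1.78 at exon 8, and a lower one of 1.61 in its 3′UTR. The peak at exon 8 had 4 of 145 bases on that exon and was centred in the intron 3′ of it. In Mel+LPS a different stretch of the 3′UTR (3.13) and the second exon (2.31) were higher. The other 3 genes with a peak, Mbnl2, Rbm5 and Esrp2, had 7 peaks from 1.17 to 4.53, the highest being that of Rbm5 at exon 2, higher in Mel+LPS. Celf1 and the epithelial regulator Esrp1 had none.

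Among the core spliceosome genes, 9 of 12 had 26 peaks. Sf3b1, the U2 component that contacts the branch site, had 6. Its intron 1 held a peak higher in LPS with 6.19 (chr1:55022003-55022106) and an overlapping one lower in Mel+LPS with 6.28 (chr1:55021911-55022097). Peaks at exons 7 and 8 were higher in LPS with 1.85 and 1.47, and peaks at exons 4 and 21 were higher in Mel+LPS with 3.58 and 2.08. The peaks at exons 4 and 21 had 52 of 214 and 12 of 161 bases on the exon. They were centred in introns of the principal transcript, so no contrast of exons with introns is drawn for this gene.

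Rbm25, which associates with U1 and promotes use of 5′ splice sites, had an intron peak higher in LPS with the shared value of 3.78 and an exon 10 peak higher with 1.58. In Mel+LPS, peaks at exons 8, 12 and 17 were higher with 1.87, 1.18 and 1.63, and one in an intron was lower with 2.22. Luc7l, a U1-associated protein, had a 3′UTR peak higher in LPS (2.01), intron peaks lower in Mel+LPS (2.17 and 1.14) and an intron peak higher in Mel+LPS (1.2). The peaks of Sf3b1, Rbm25 and Luc7l that were lower in Mel+LPS lay in introns, whereas Snrnp70 had a lower peak in coding exon 10 (1.12). Luc7l3 had a lower peak that the rule missed (3.12). It lay outside the principal transcript, on the last exon of another transcript. The other 6 genes with a peak, U2af1, Prpf8, Snrnp200, Snrnp70, Rbm39 and Luc7l3, had 10 peaks from 1.12 to 3.55. U2af2, Sf1 and Sf3b2, which recognise the polypyrimidine tract and the branch site, had none.

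Of the 4 helicases and kinases, Ddx5, an RNA helicase, had peaks at exons 2 and 1 higher in Mel+LPS with 3.33 and 1.53, and the SR protein kinase Clk4 had one higher in Mel+LPS with 1.64. Ddx17 and Clk1 had none. No gene of this group had a peak higher in LPS, and peaks lower in LPS could be seen for Clk1 only, which had none.

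**Figure D4:**
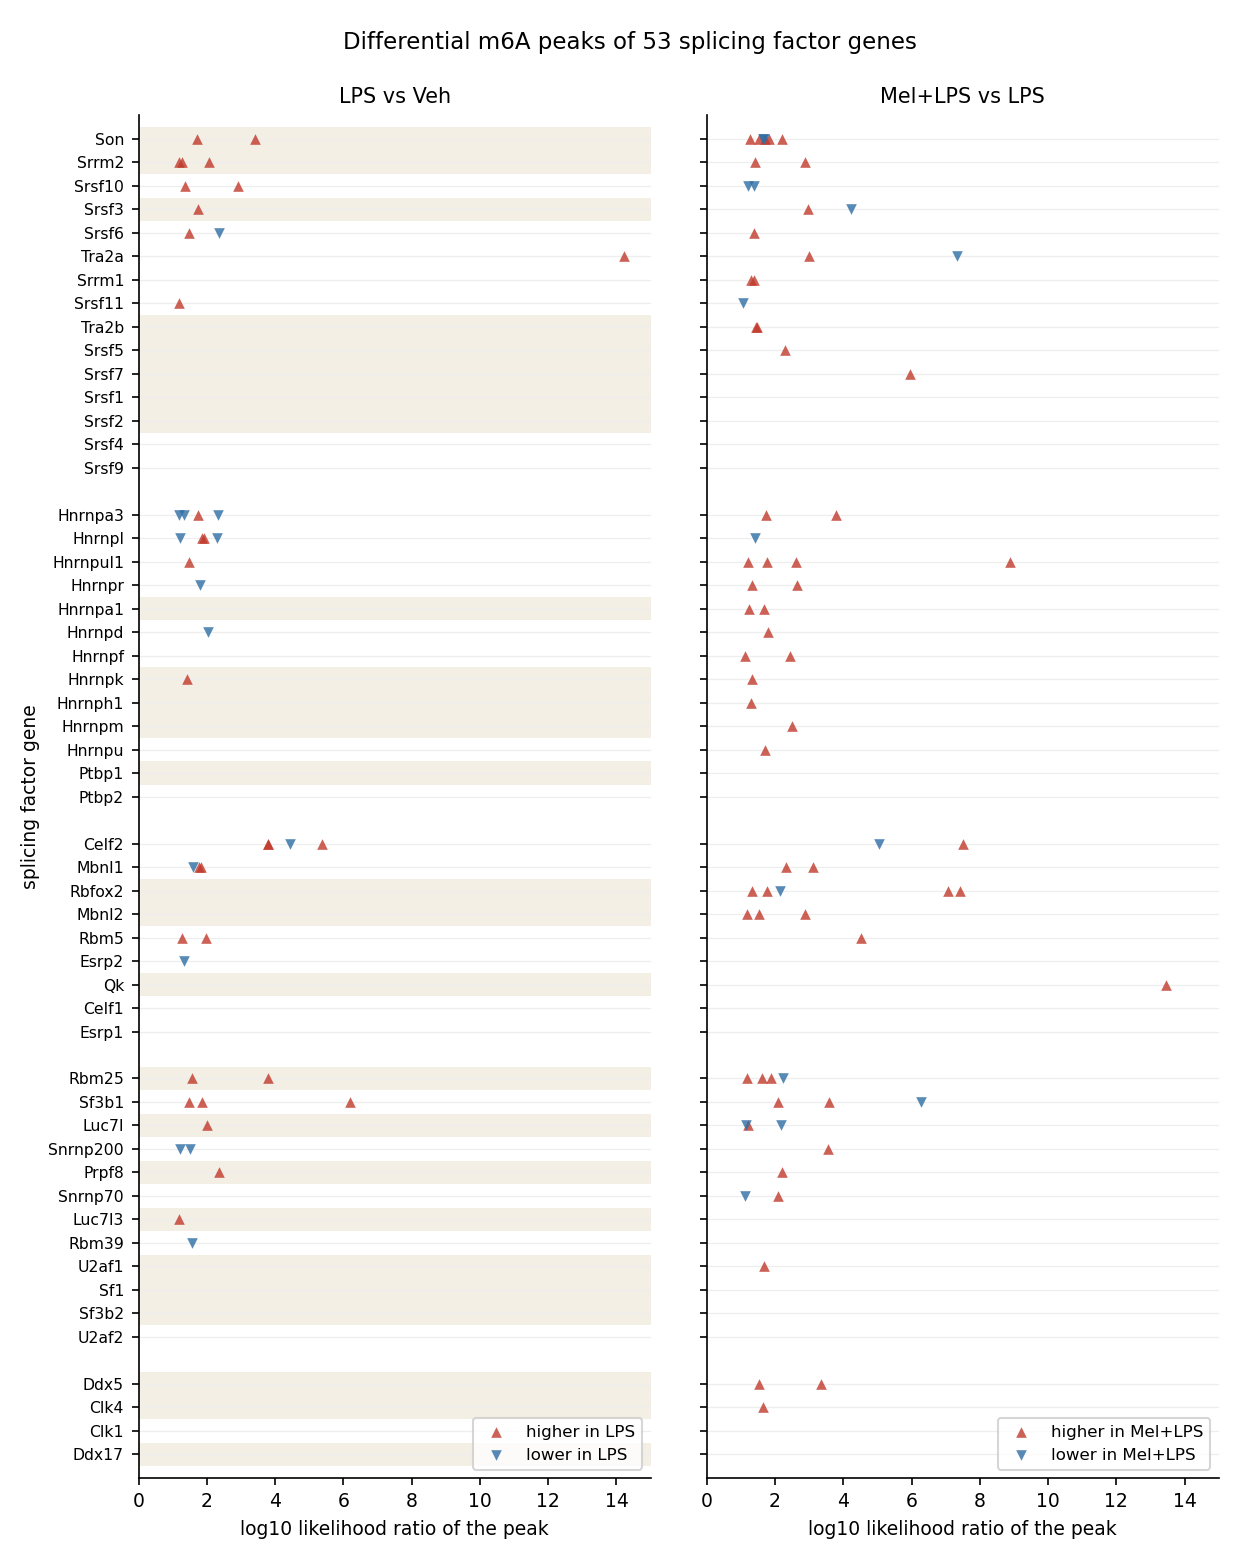
Log10 likelihood ratio of each of the 118 peaks by gene, ordered by role, for LPS vs Veh and Mel+LPS vs LPS; upward red triangles are peaks higher and downward blue triangles peaks lower in the first-named treatment. Shaded genes lie past chromosome 9, where lower peaks in LPS were not analysed; 14.2 (Tra2a) and 13.5 (Qk) are the highest values.

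At 11 sites a peak of LPS vs Veh overlapped one of Mel+LPS vs LPS in the same gene. At 7 the peak was higher in LPS and lower in Mel+LPS: Srsf3, Srsf10, Son exon 9, Tra2a, Hnrnpl, Celf2 and Sf3b1. At 4 it was lower in LPS and higher in Mel+LPS, in Srsf6, Hnrnpa3, Hnrnpr and Snrnp200. The rule gave 0 sites with the same direction in both, but the overlapping Srrm2 peaks above, which it missed, had the same direction. The LPS libraries stand on opposite sides of the comparisons, and no count of directions is read as a result. For Hnrnpr the values were 1.80 in LPS and 1.32 in Mel+LPS. For Snrnp200, the helicase that unwinds U4 from U6, they were 1.21 in LPS and 3.55 in Mel+LPS. The exonic parts of the coding sites that were higher in Mel+LPS are shown for Srsf6 (chr2:162933798-162933862), Hnrnpa3 (chr2:75661985-75662106) and Snrnp200 (chr2:127222167-127222254), all on the plus strand, with DRACH in capitals.
Srsf6, exon 4: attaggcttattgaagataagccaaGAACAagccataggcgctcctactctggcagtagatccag
Hnrnpa3, exon 4: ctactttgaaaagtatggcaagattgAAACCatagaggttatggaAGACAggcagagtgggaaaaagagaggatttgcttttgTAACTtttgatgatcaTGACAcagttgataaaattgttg
Snrnp200, exon 16: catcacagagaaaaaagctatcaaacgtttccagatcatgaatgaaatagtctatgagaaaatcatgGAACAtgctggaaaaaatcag

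The tables classed 61 of the 118 peaks (51.7%) as exon, 26 (22.0%) as intron, 15 (12.7%) as 5′UTR, 14 (11.9%) as 3′UTR and 2 (1.69%) as promoter. The peaks of all protein-coding genes were 55.4% exon, 24.2% intron, 6.04% 5′UTR, 13.9% 3′UTR and 0.532% promoter. The 5′UTR share of the splicing factor genes (interval 7.86 to 19.9) was the class farthest from that of all genes. This class was one of the tables only. On the principal GENCODE transcript 0 of these 15 centres lay in a 5′UTR, 12 (80%) lay in an intron, 1 in coding sequence and 2 outside the transcript. Of the 5′UTR peaks of all protein-coding genes, 16.3% were centred in a 5′UTR and 53.6% in an intron.

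Exon peaks of the splicing factor genes were centred beside the exon more often than on it. For 40 of 61 (65.6%, 53 to 76.3) the centre was 3′ of the exon, for 18 (29.5%) on it and for 3 (4.92%) 5′ of it, whereas the shares over all protein-coding genes were 48.5%, 49.8% and 1.67%. On the plus strand 63.2% and on the minus strand 69.6% were 3′ of the exon. A median of 30% of the peak's bases lay on the exon, beside 48.5% for all genes, and 10 of 61 peaks (16.4%) lay wholly on it, beside 39.1%. Exon length moved with this. Of the exon peaks on internal exons, 5 of 53 (9.43%) in the splicing factor genes lay on an exon longer than 400 bases, beside 26.2% in all genes. Most of these 5 peaks lay on 1 exon, exon 3 of Son. Counted as exons with or without a peak, 6 of the 589 internal exons of the splicing factor genes (1.02%) were that long, beside 2.67% in all genes. Its part in the position of the centres was not tested.

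**Figure D5:**
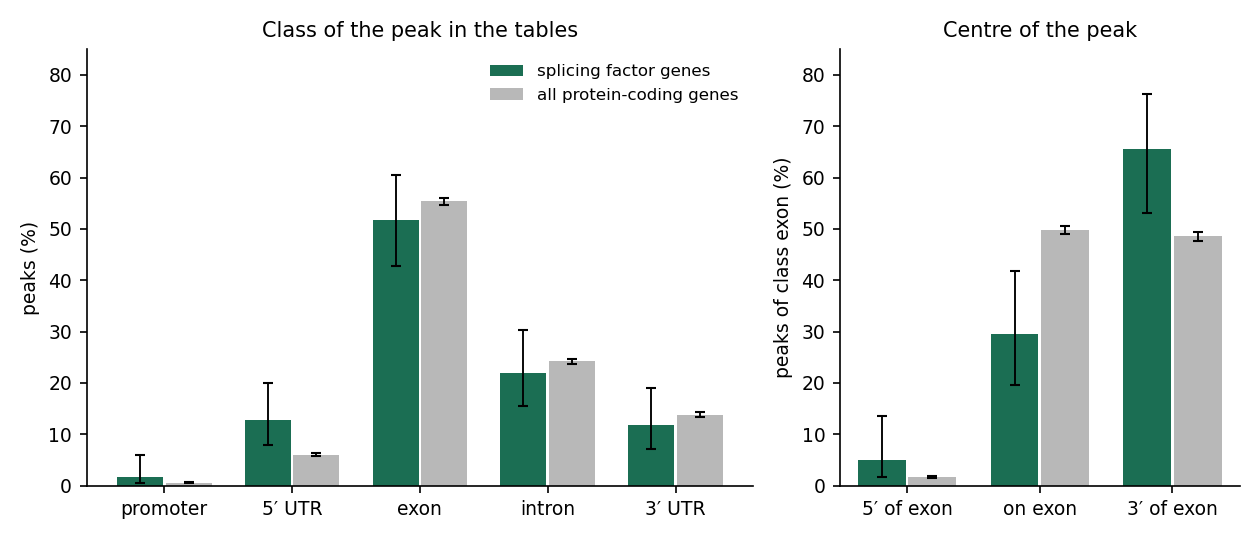
Left, share of peaks (%) in each class of the tables; right, position of the centre of exon peaks relative to the overlapped exon, 5′ and 3′ on the strand of the gene. Bars are the splicing factor genes and all protein-coding genes with Wilson 95% intervals; 65.6% of the splicing factor exon peaks are centred 3′ of the exon, beside 48.5%.

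A set of 9 peaks lay on GENCODE exons of these genes that belong to no coding transcript. Of these, 6 (5.08%, 2.35 to 10.7) lay on retained-intron transcripts, in Srsf3, Son, Srrm2, Hnrnpl, Hnrnpul1 and Mbnl1, beside 1.61% of the peaks of all protein-coding genes. A further 2 (1.69%) lay on the Hnrnpl exon marked for decay, beside 0.195%, and the peak in intron 2 of Srsf10 (0.847%) lay on an exon of a processed transcript, beside 0.643%. Such transcripts are annotated for more of these genes to begin with. Of the 53 genes 84.9% have a retained-intron transcript and 69.8% one marked for decay, beside 42.9% and 21% of all protein-coding genes.

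The exonic part could be read for 74 of the 118 peaks, those with at least 30 bases on 1 exon. DRACH was found in 61 of the 74 (82.4%, 72.2 to 89.4), beside 90.5% for all protein-coding genes, with 20.5 matches per 1000 bases (17.5 to 23.8) beside 24.5. GGACT was found in 5 of 74 (6.76%, 2.92 to 14.9), beside 20.7%, and GGAC, which every GGACT contains, in 33.8%, beside 49.7%. These shares also depend on the bases read, 8499 in 74 peaks beside 2256701 in 14807. Per 1000 bases there were 0.941 GGACT matches (0.406 to 1.85), beside 1.62, which lies within that interval. Only the strand of the gene was searched. Moved 100 bases toward the 5′ end of the gene, the windows held GGACT in 12% of the splicing factor peaks, beside 19%. Per 1000 bases, these windows held 1.46 GGACT matches, beside 1.45. Intron sequence was not read, so these shares leave out most of the bases of peaks centred beside an exon.

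The other splicing genes were a list of 142, with 302 peaks in 99 of them. A peak higher in LPS was found in 31.0% of them and a lower one in 39.7% of the 73 on chromosomes 1 to 9. In Mel+LPS, 47.9% had a higher and 23.9% a lower peak, and 72.2% of their peaks in this comparison were higher, beside 79.5% for the 53 genes. The highest values were those of Rsrc1 (16.1), Snrnp48 (11.1) and, with the same value of 6.19, Zfp638 and Prpf39 for higher in LPS, and Snrnp40 (14.7), Sfpq (7.05) and Srpk2 (5.95) for lower in LPS. In Mel+LPS they were those of Prpf39 (11.5), U2surp (9.91) and Zfp638 (9.77) for higher, and Rsrc1 (16.0), Scaf8 (8.24) and Khdrbs1 (6.28) for lower. The value of 6.19 was shared by 242 peaks of its table and that of Srpk2 by 88.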

How the data were processed

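Total RNA was extracted from the uterus, and its mRNA was fragmented to about 100 nucleotides and immunoprecipitated. Reads were trimmed (Fastp) and aligned (STAR 2.5.2a) by the authors. They used exomePeak2 for peak calling, MACS2 for differential peaks and ChIPseeker 1.22.1 for annotation (versions from the submitters' processing notes, which name mm10). The authors deposited 1 score per differential peak, the log10 likelihood ratio. How replicates were combined, and whether input was subtracted in that step, is not given in the sources used here.

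Peaks were given to genes by the rule stated above, and the same rule was applied to 21900 RefSeq protein-coding genes for the background. 39 peaks assigned to a member but centred outside its borders were left out. Peaks were placed on GENCODE release 21, with 1 principal transcript per gene (APPRIS label, then support level, then length). The members and lists were chosen with earlier results of these data known. Values are printed for the 5 highest members of each table, members with values of at least 3 in both directions of a comparison, members with 4 or more peaks and members with none. Of the other splicing genes the 3 highest of each table are named. Sequences without GGACT, sites in both comparisons and peaks missed by the rule were chosen after their values were seen. No test was run, since no table holds a value per library. Peaks lower in LPS past chromosome 9 (155, of which 0 are of members) were not used. Scripts (Python 3.11.15, pandas 2.3.3, scipy 1.17.1, matplotlib 3.10.9) were tested on simulated data.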

Additional observations from a re-analysis of the deposited data

How the results depend on the processing

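No paired analysis was possible because the tables hold no value per replicate, and for the same reason no replicate could be left out. Of 116 values recomputed under an alternative, 70 stayed within their limits (a count within 1.5 times, a share or median within its spread), 46 moved and 0 reversed. A minimum value of 3 moved 22 of 23, by its construction. It left 7, 1, 13 and 4 peaks in 5, 1, 12 and 4 genes (higher and lower in LPS, higher and lower in Mel+LPS), with medians of 3.78, 4.45, 4.53 and 5.66. Per gene it left 2 up only, 0 down only and 1 both in LPS, and 9, 1 and 3 in Mel+LPS. It left 15, 7, 29 and 10 other splicing genes, a setting added after seeing the data. Without introns, 20 peaks were higher in LPS, and 8 peaks in 7 genes were lower in Mel+LPS, where 3 genes had both directions. With names in the annotation only, 9 peaks in 6 genes were lower in LPS, 2 genes had both directions in LPS and the 3′UTR share was 0%, since 3′UTR peaks carry no name. With centres on GENCODE exons of the gene, 7 peaks in 6 genes were lower in LPS, 38 peaks were higher in Mel+LPS and 7 in 7 genes lower. Then 3 genes had lower peaks only and 3 both in LPS, 5 had both in Mel+LPS, and the 3′UTR share was 34.2%. With the highest peak per gene only, 8 genes were down only in LPS and 8 in Mel+LPS. With genes that have a peak in any table as the background, its percentages were 47.6, 49.2, 60.6 and 36.2. GGAC in place of DRACH gave 3.53 matches per 1000 bases. Merging near peaks and leaving out peaks inside another gene moved none of the values. The depth behind the peaks is unknown, so a gene without a peak cannot be told from one with too few reads.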
